A study of Homo sapiens with 3 samples.

Results

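Human miRNA hairpins carry numbers in the order of their registration, and those numbered 1000 and above were mostly named from deep sequencing. The rule here took every hairpin in that number range whose sense strand held a DICER PAR-CLIP cluster, except 12 numbers that it leaves out. It found 179 members among the 396 miRNA hairpins with a cluster in any of the 4 lists deposited by the authors. The other 217 hairpins, which include let-7, the numbers below 1000 and the left-out numbers, served as the comparison. The members carried 121, 117 and 58 hairpins with a cluster in replicates 1, 2 and 3, and 115 in the series-wide list, against 192, 181, 134 and 186 of the other hairpins.

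The 3 samples formed a single group of FLAG:DICER Flp-In HEK293 T-Rex cells, a human embryonic kidney line that carries a FLAG-tagged DICER transgene. All samples were digested with RNase T1, numbered replicates 1 to 3, and no control group without the tag was used here. In PAR-CLIP, RNA is labelled in living cells with a uridine analogue that ultraviolet light couples to a protein in contact with it, and coupled uridines appear as T-to-C conversions in the sequence reads. Separate cultures for the replicates are not stated in the labels, so the spread that the tests below measure may be technical. The replicate lists held 11577, 18065 and 5099 clusters with 1306125, 1060791 and 595487 conversions, and the series-wide list held 8469 clusters. Replicate 3 thus had the fewest clusters and conversions, and the full read depth of the libraries is not known from these lists. All 9 hairpins of the miR-17-92 and miR-106b-25 clusters, taken as HEK293 markers, had a cluster in all 3 replicates. None of the 8 liver, neuron or muscle markers had a cluster in any replicate, and 2 of 3 blood markers had one in some replicate but not in all 3.

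In the usual pathway, DROSHA cuts a primary transcript to release a hairpin, and DICER then cuts the hairpin near its loop to give a duplex of a 5p and a 3p strand. Bases 2 to 8 of a mature strand form the seed, which pairs with target mRNAs. Mirtrons are short introns that fold into a hairpin once splicing has freed them, so they reach DICER without the DROSHA cut. Many entries of this number range were named from few reads, and some overlap repeats or other noncoding RNAs.

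The mature strands of 9 of the 10 members that lead the series-wide list by conversions are shown first, because the results below turn on them; the other, hsa-mir-3687, was not matched. They come from RefSeq (GRCh38.p14), with the seed in capitals. Of the 37 members with a cluster in all 3 replicates, 35 had a mature sequence there.
hsa-miR-6789-5p: gUAGGGGCgucccgggcgcgcggg
hsa-miR-6789-3p: cGGCGCCCgugucuccuccag
hsa-miR-1292-5p: uGGGAACGgguuccggcagacgcug
hsa-miR-1292-3p: uCGCGCCCcggcucccguuc
hsa-miR-3620-5p: gUGGGCUGggcugggcugggcc
hsa-miR-3620-3p: uCACCCUGcaucccgcacccag
hsa-miR-6765-5p: gUGAGGCGgggccaggagggugugu
hsa-miR-6765-3p: uCACCUGGcuggcccgcccag
hsa-miR-3187-5p: cCUGGGCAgcguguggcugaagg
hsa-miR-3187-3p: uUGGCCAUggggcugcgcgg
hsa-miR-3145-5p: aACUCCAAacacucaaaacuca
hsa-miR-3145-3p: aGAUAUUUugaguguuuggaauug
hsa-miR-4775: uUAAUUUUuuguuucggucacu
hsa-miR-4763-5p: cGCCUGCCcagcccuccugcu
hsa-miR-4763-3p: aGGCAGGGgcuggugcugggcggg
hsa-miR-1301-5p: cGCUCUAGgcaccgcagca
hsa-miR-1301-3p: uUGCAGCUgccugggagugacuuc
The 60 mature strands of the 35 hairpins had 60 distinct seeds. None shared its seed with another hairpin that had a cluster in all 3 replicates. Only hsa-miR-6726-5p and hsa-miR-6807-3p shared theirs with a hairpin outside the number range, namely MIR920 and MIR217, and neither of those had a cluster.

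Whole hairpins are printed for 4 members that differ in the annotation of their clusters, with the mature strands in capitals. The first pair are hairpins with a cluster tagged at a splice site, and the second pair are hairpins without this tag.
hsa-mir-6765: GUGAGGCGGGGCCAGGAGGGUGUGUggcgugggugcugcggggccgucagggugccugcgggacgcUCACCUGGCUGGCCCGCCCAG
hsa-mir-6807: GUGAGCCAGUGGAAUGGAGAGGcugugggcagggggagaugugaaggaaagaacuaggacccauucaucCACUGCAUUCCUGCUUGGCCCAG
hsa-mir-3187: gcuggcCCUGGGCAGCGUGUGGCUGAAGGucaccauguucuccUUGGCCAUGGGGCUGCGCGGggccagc
hsa-mir-3145: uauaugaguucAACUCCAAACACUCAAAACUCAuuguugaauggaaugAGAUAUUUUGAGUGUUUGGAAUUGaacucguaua
The hairpins hsa-mir-6765 and hsa-mir-6807 begin with GU and end with AG, the bases at the ends of most introns, whereas hsa-mir-3187 and hsa-mir-3145 do neither.

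Members had fewer T-to-C conversions per hairpin than the other hairpins in every replicate. The median member had 18, 9 and 20.5 conversions in replicates 1, 2 and 3, against 125.5, 49 and 54.5 for the median other hairpin. The medians lay apart in each replicate, but the ranges overlapped, since members reached from 1 to 1852 conversions in replicate 1 and from 2 to 1239 in replicate 3. The median log2 difference, members minus others, was -2.80, -2.45 and -1.41, with a mean of -2.22 ± 0.722 (SD, n = 3), or 4.66-fold fewer in members. All 3 replicates gave a negative value (exact sign-flip permutation, two-sided, p = 0.25, or 0.375 adjusted over 3 tests), and 0.25 is the smallest p that this design allows. Fewer copies of an RNA and less contact per copy cannot be told apart here, since RNA levels were not measured.

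Distinct reads, which are less swollen by copies of the same molecule, showed a gap of similar size. The median member had 4, 4 and 2 distinct reads, against 18, 15 and 6 for the median other hairpin. The log2 difference averaged -1.89 ± 0.293 (SD, n = 3), or 3.70-fold fewer in members, again negative in each of the 3 replicates (exact sign-flip permutation, two-sided, p = 0.25, adjusted 0.375). A cluster needed at least 2 distinct reads to be listed, and 29.8%, 34.2% and 56.9% of members stood at that minimum in replicates 1, 2 and 3, against 8.33%, 11.6% and 29.1% of the other hairpins. Pooled over all hairpins of a group, members had 9.11, 5.51 and 12.2 reads per distinct read, against 25.6, 17.7 and 38.3 at the other hairpins. These pooled values weigh the largest hairpins most and do not describe the median hairpin. In replicate 3 the median member had 23.5 reads and 2 distinct reads, against 57.5 and 6 for the median other hairpin.

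**Figure D1:**
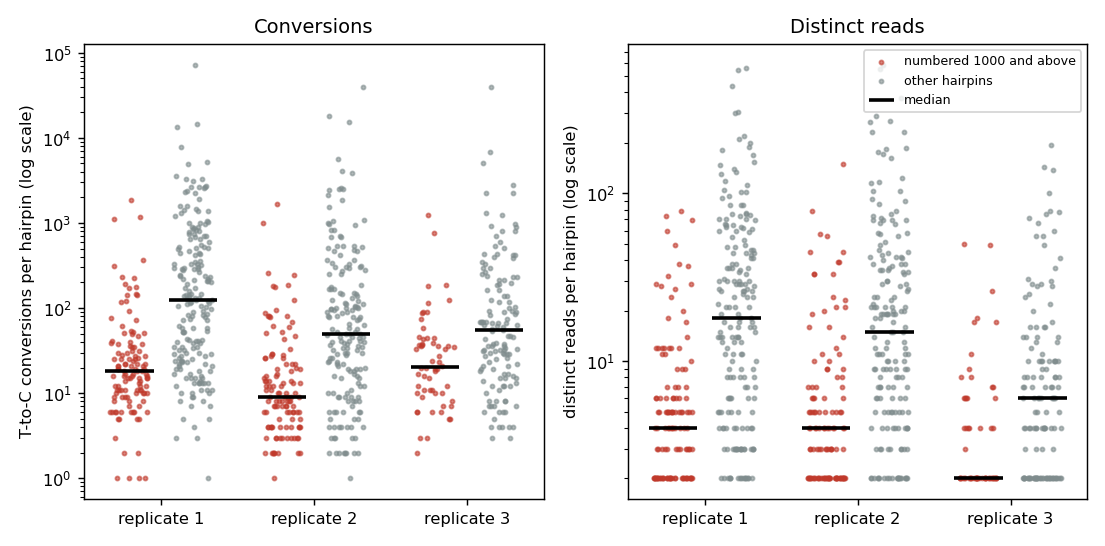
Each point is a hairpin with a cluster in that replicate, with its T-to-C conversions (left) or distinct reads (right) on a log scale; the horizontal bars are medians, at 18, 9 and 20.5 conversions for hairpins numbered 1000 and above, against 125.5, 49 and 54.5 for the other hairpins. Members sit lower but overlap the others over most of the range.

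Members held 4.14%, 4.31% and 4.80% of all conversions on hairpins in replicates 1, 2 and 3, a mean of 4.42% ± 0.342 (SD, n = 3). By distinct reads their share was 11.4%, 13.3% and 14.2%, a mean of 13.0% ± 1.44 (SD, n = 3). Of all conversions on any RNA they held 0.659%, 0.534% and 0.661%. These shares differed little between replicates, although the replicates differed in size.

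The T-to-C share of reads differed little at the median. The median number of conversions per read was 0.950, 1 and 1 for members and 0.898, 0.938 and 1 for the other hairpins. The difference averaged 0.0381 ± 0.0334 (SD, n = 3), with 2 replicates positive and replicate 3 at 0 (exact sign-flip permutation, two-sided, p = 0.5, adjusted 0.5). It turned to -0.0281 when clusters with fewer than 3 distinct reads were left out, so its direction depends on the thinnest clusters. Every read was converted in 43.8%, 53.8% and 75.9% of members, against 17.7%, 28.7% and 66.4% of the other hairpins. Among hairpins with at least 10 distinct reads, the medians were 0.840, 0.853 and 0.939 for 27, 25 and 7 members, against 0.895, 0.925 and 0.980 for 123, 108 and 47 other hairpins.

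Members were less often supported by every replicate. Of the 171 members with a cluster in any replicate, 37 (21.6%) had one in all 3, 51 in 2 and 83 in only 1, while 8 further members appeared in the series-wide list alone. Of 215 other hairpins, 123 (57.2%) had a cluster in all 3, and 46 each in 2 and in 1. Over all 386 hairpins with a cluster in any replicate, 41.5% had one in all 3, so the members' share lay below the background. Of the 51 members in 2 replicates, 40 lacked replicate 3, which had the fewest clusters, as did 38 of the 46 other hairpins. Without replicate 3, 77 members and 161 other hairpins had a cluster in both remaining replicates.

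The next question was which members met criteria for depth, T-to-C share and replicate support at once. The criteria were a cluster in all 3 replicates, at least 3 distinct reads in each, and conversions per read between the 10th and 90th percentile of the other hairpins in each replicate. Those limits were 0.579, 0.714 and 0.826 at the low end and 1 at the high end. The minimum of 3 distinct reads lay below the medians of the other hairpins, 18, 15 and 6, so meeting it does not show a like depth. The criteria were met by 13 of 171 members (7.60%), against 76 of 215 other hairpins (35.3%), with a background of 23.1% over all 386 hairpins. The percentile limits came from the other hairpins themselves, which favours them in this count. With conversions taken as a share of all mismatches, hsa-mir-1292, hsa-mir-3687, hsa-mir-4763, hsa-mir-6821 and hsa-mir-6889 no longer met the criteria.

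Those 13 members fell into groups by the annotation of their cluster: 6 at splice sites, 2 in mRNA exons, 2 in mRNA introns and 3 outside RefSeq mRNAs. The annotation is that of the deposited lists, in the hg19 build, and all cluster coordinates below are hg19. A hairpin is placed at a splice site where the authors' annotation gave its cluster a splice-site tag. The tag belongs to the cluster, and a hairpin without it may still lie beside a splice site.

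**Figure D2:**
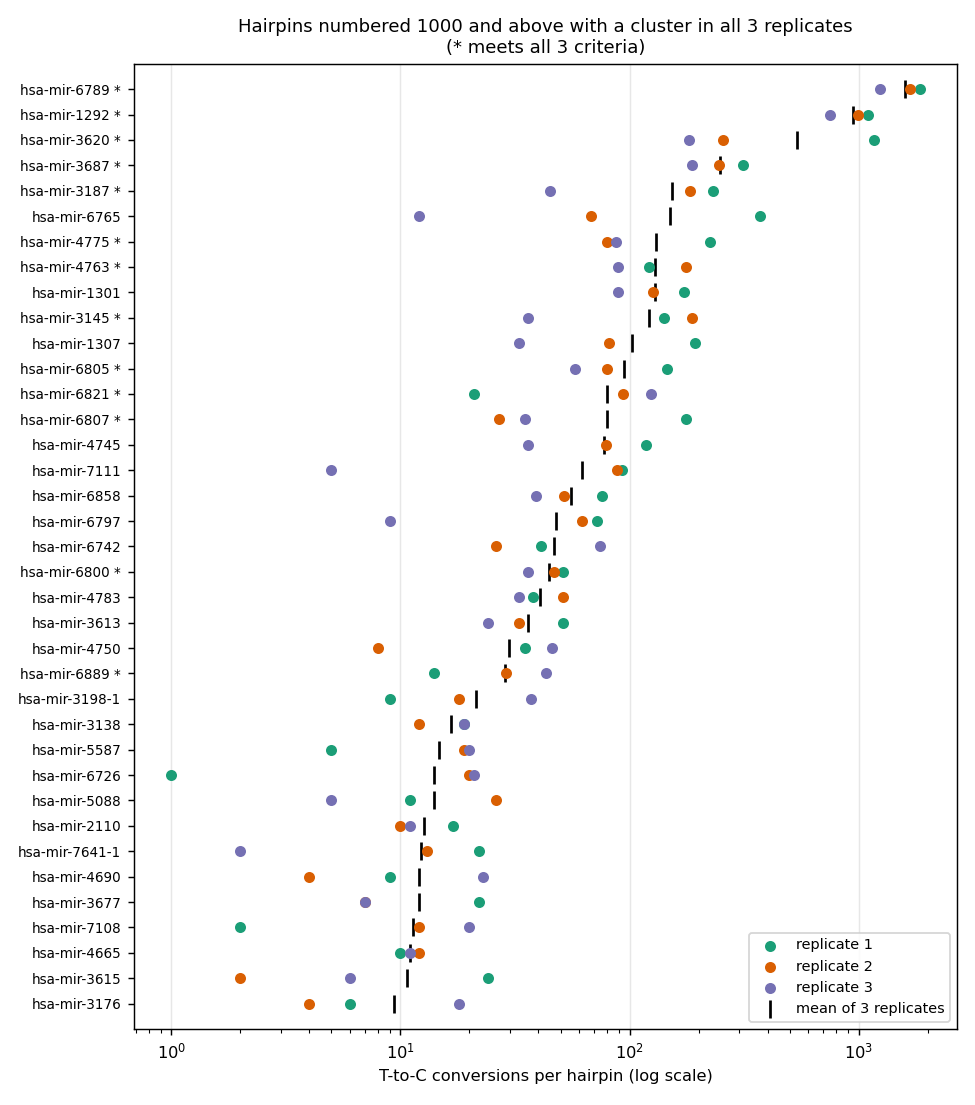
T-to-C conversions (log scale) of the 37 hairpins numbered 1000 and above with a cluster in all 3 replicates, 1 point per replicate, with a bar at the mean; hairpins that met all 3 criteria carry an asterisk. Only hsa-mir-6789 and hsa-mir-1292 lie near or above 1000 in most replicates, and the lower rows spread widely between replicates.

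The splice-site hairpins held most of the members' conversions, and 3 of them carried most of that share. These 21 members were 11.7% of all members but held 58.9%, 58.9% and 64.2% of member conversions in replicates 1, 2 and 3. Of member conversions, 47.9%, 51.6% and 55.2% lay on the 3 largest members, hsa-mir-6789, hsa-mir-1292 and hsa-mir-3620, all at splice sites. Among the other hairpins, 7 (3.23%) were at splice sites and held 1.25%, 2.09% and 3.67% of conversions. Of the 21 splice-site members, 11 had a cluster in all 3 replicates, compared with 13 of 102 intronic members. A longer cluster can more readily reach a splice site, and the part of this in these counts was not tested. The intronic members were the most frequent kind, at 106 (59.2%), and held 19.4%, 19.2% and 20.0% of member conversions. Among the other hairpins, 53 of 98 intronic hairpins and 3 of 7 at splice sites had a cluster in all 3 replicates. Without the clusters at splice sites, members held 2.18% of hairpin conversions and 7 met the criteria.

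The largest member was hsa-mir-6789, at a splice site of PLEKHJ1 (chr19:2235828-2235922, minus strand). It had 1852, 1677 and 1239 conversions in replicates 1, 2 and 3 (1589 ± 316, SD, n = 3), on 69, 78 and 50 distinct reads. The 3 replicates lay close together, and the hairpin exceeded 90.1%, 93.4% and 94.0% of the other hairpins. Its conversions per read were 0.896, 0.959 and 0.925, and the position with the strongest crosslink, as the authors list it, was the same base in each replicate. This base was position 3 of the 95 nt cluster in the series-wide list, counted from the 5′ end. All of the conversions listed for PLEKHJ1 in replicates 1 and 3, and 99.8% in replicate 2, were on the hairpin.

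Next came hsa-mir-1292, at a splice site of NOP56, which encodes a core protein of box C/D small nucleolar ribonucleoproteins (chr20:2633422-2633488, plus strand). It had 1102, 991 and 753 conversions (949 ± 178, SD, n = 3), on 78, 150 and 49 distinct reads. Replicate 3 was lowest in conversions, and the hairpin exceeded 85.9%, 91.2% and 90.3% of the other hairpins. Conversions per read were 0.875, 0.854 and 0.897, and the strongest crosslink lay at position 4 of a 67 nt cluster in the series-wide list and at the same base in all replicates. The hairpin held 97.3%, 99.4% and 83.8% of the conversions listed for NOP56.

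Together hsa-mir-6789 and hsa-mir-1292 held 34.3%, 47.1% and 50.6% of member conversions in replicates 1, 2 and 3, and 41.6% in the series-wide list. The 10 largest members held 69.5% there, so the contact of the whole group rested on few hairpins. This was not particular to members. Among the other hairpins, the largest alone had about 72510, 40010 and 39620 conversions in replicates 1, 2 and 3, of 199460, 125760 and 78109. These counts are part of the total behind the members' share of hairpin conversions.

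hsa-mir-3620, in ARF1, which encodes a small GTPase of the Golgi, was uneven between replicates (chr1:228284906-228285071, plus strand). It had 1171, 257 and 181 conversions (536 ± 551, SD, n = 3), on 73, 57 and 17 distinct reads. Replicate 1 stood far above the other 2 in conversions but less so in distinct reads. Its RefSeq hairpin of 79 nt also begins with GU and ends with AG, and its cluster carried a simple repeat tag. It held 86.7%, 82.4% and 88.7% of the conversions listed for ARF1.

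Smaller splice-site members that met the criteria were hsa-mir-6807, hsa-mir-6821 and hsa-mir-6800. hsa-mir-6807, in TRIM28, a corepressor of transcription, had 177, 27 and 35 conversions on 28, 9 and 4 distinct reads, with replicate 1 highest. hsa-mir-6821, in the kinase gene PIM3, went the other way, with 21, 94 and 124 conversions on 10, 45 and 26 distinct reads, and held only 5.43%, 16.2% and 26.3% of the conversions listed for PIM3. hsa-mir-6800, in MED25, a Mediator subunit gene, was the most even of these, with 51, 47 and 36 conversions on 12, 12 and 6 distinct reads. The direction of replicate differences was thus not shared among these hairpins.

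Cluster and RefSeq hairpin were of like length for some splice-site members and not for others. In the series-wide list the clusters of hsa-mir-6765 and hsa-mir-6807 covered 88 and 93 nt, and their RefSeq hairpins were 87 and 92 nt long. In the list of replicate 3 they covered 30 and 25 nt. hsa-mir-6821 had 2 separate clusters in the series-wide list, over an extent of 75 nt, with a hairpin of 74 nt. The cluster of hsa-mir-3620 covered 166 nt, well beyond its hairpin of 79 nt, and all of its conversions were counted for the hairpin. In the series-wide list the strongest crosslink of both hsa-mir-6765 and hsa-mir-6807 lay at position 2 of the cluster, that is, next to its 5′ end. It also lay near that end at hsa-mir-1296, hsa-mir-1307 and hsa-mir-7111 (positions 1, 1 and 3), all without a splice-site tag. The RefSeq hairpin of hsa-mir-7111 ends with AG. At the splice-site member hsa-mir-3620 the strongest crosslink lay at position 60 of 166 in the series-wide list. In replicates 1, 2 and 3 it lay at positions 29 of 74, 2 of 108 and 2 of 56. Among longer clusters of the series-wide list, 25.7% of 35 members had it in the first 5 nt, against 27.8% of 126 other hairpins. The shares were 26.9% and 27.3% in replicates 1 and 2, against 33.0% and 18.5%. Replicate 3 had only 2 members with a longer cluster, hsa-mir-3620 and hsa-mir-6789. Both had the strongest crosslink in the first 5 nt, against 6.45% of 31 other hairpins. A difference by annotation was not tested. The clusters were not placed base by base on the printed hairpins, because the 2 are in different genome builds.

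hsa-mir-6765, in JAG2, a Notch ligand gene, had 372, 68 and 12 conversions on 60, 33 and 7 distinct reads (chr14:105617114-105617201, minus strand). Replicate 1 was highest and replicate 3 lowest, a wider spread than that of hsa-mir-6789. It missed the criteria because its conversions per read of 0.800, 0.586 and 0.571 were below the lower limits in replicates 2 and 3.

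**Figure D3:**
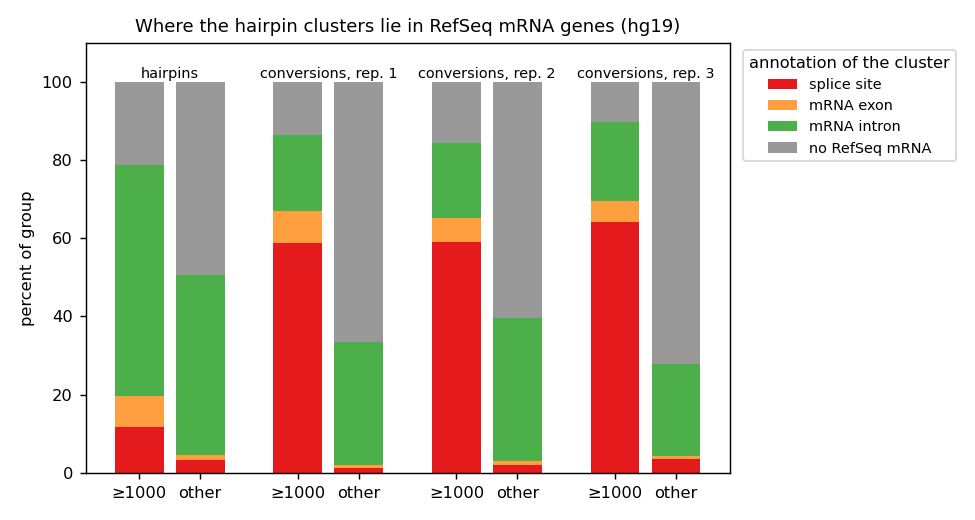
Stacked bars give the percent of hairpins (left pair) and of hairpin conversions in each replicate (other pairs) by the annotation of the cluster, for hairpins numbered 1000 and above (left bar of each pair) and other hairpins (right bar). Splice sites take 11.7% of members but 58.9% to 64.2% of their conversions, against 3.23% of the other hairpins and 1.25% to 3.67% of theirs.

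Among members without a splice-site tag, hsa-mir-3187, in no RefSeq mRNA, had 232, 184 and 45 conversions on 24, 33 and 4 distinct reads (chr19:813589-813651, plus strand). Replicate 3 was lowest in both, and conversions per read were 0.932, 0.963 and 1. Its 63 nt cluster had the strongest crosslink at position 31 in the series-wide list, near its middle. hsa-mir-3145, in an intron of NHSL1, had 141, 187 and 36 conversions on 29, 39 and 6 distinct reads (chr6:138756359-138756421, minus strand). It too was lowest in replicate 3, and the strongest crosslink lay at position 28 of its 63 nt cluster in the series-wide list. That base led in replicate 2 only, since replicates 1 and 3 shared another base, 14 nt away. With 31.7% G and C this hairpin was among the most AU-rich members in all 3 replicates.

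hsa-mir-4775, in an exon of CCNYL1, a cyclin Y-like gene, had 224, 80 and 87 conversions on 18, 23 and 6 distinct reads (chr2:208619538-208619596, plus strand). Every read was converted in each replicate, and the strongest crosslink lay at position 30 of 59 in the series-wide list and at the same base in all replicates. Its RefSeq hairpin had 26.7% G and C. hsa-mir-6805, in an exon of RPL28, a ribosomal protein gene, had 146, 80 and 58 conversions on 37, 33 and 7 distinct reads. Its cluster was 32 nt in every replicate, shorter than a hairpin, and the hairpin held 48.5%, 74.8% and 100% of the conversions listed for RPL28. hsa-mir-6889, in an intron of RANGAP1, was the smallest of the 13, with 14, 29 and 43 conversions on 5, 10 and 4 distinct reads.

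hsa-mir-4763 lies in MIRLET7BHG, the host transcript of let-7 hairpins (chr22:46509464-46509528, plus strand). It had 122, 176 and 89 conversions on 32, 56 and 11 distinct reads, a mean of 129 ± 43.9 conversions (SD, n = 3). Its clusters had the strongest crosslink at the same base in all replicates. It held only 3.24%, 13.2% and 15.7% of the conversions listed for its host, where a neighbouring cluster had 2659, 978 and 432.

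hsa-mir-3687 met the criteria with 312, 245 and 188 conversions on 49, 45 and 18 distinct reads (248 ± 62.1 conversions, SD, n = 3; chr21:9826208-9826264, plus strand). The replicates lay close together, conversions per read were 0.972, 0.972 and 0.945, and the strongest crosslink was the same base in each. It is on the list of entries that overlap repeats or other noncoding RNAs, since it is known to match the spacer of a ribosomal RNA precursor. Within 1000 nt on the same strand lay 1 further cluster, with 401, 121 and 265 conversions. The neighbouring entry hsa-mir-3648 had 39 and 29 conversions in replicates 1 and 2 and no cluster in replicate 3. Its reads could be shared with near-identical ribosomal copies, which the deposited lists do not resolve.

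Of the 37 members in all 3 replicates, 24 missed the criteria. In 16 of them a replicate had fewer than 3 distinct reads, in 11 cases replicate 3 alone. In 12, conversions per read fell below the lower limit in some replicate, and for 8 that was the only reason.

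Members that failed on conversions per read included hairpins widely seen in small RNA sequencing. hsa-mir-1301, in an intron of DNMT3A, a DNA methyltransferase gene, had 172, 126 and 89 conversions on 20, 24 and 8 distinct reads (chr2:25551517-25551582, minus strand). Its conversions per read of 0.827, 0.700 and 1 were just under the limit in replicate 2 only, and its strongest crosslink differed by up to 25 nt between replicates. hsa-mir-1307, in an exon of USMG5, a gene of the mitochondrial ATP synthase, had 193, 81 and 33 conversions on 38, 39 and 17 distinct reads (chr10:105154056-105154118, minus strand). Its 0.726, 0.757 and 0.623 conversions per read were under the limit in replicate 3 only. hsa-mir-4745, at a splice site of PTBP1, a splicing regulator gene, had 118, 79 and 36 conversions and missed the same limit in replicate 3. hsa-mir-5587 was the farthest below: only 5 of 73, 19 of 34 and 20 of 75 reads carried a conversion.

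Of the 16 hairpins in the list of widely seen later numbers, 6 had a cluster in all 3 replicates (hsa-mir-1292, hsa-mir-1301, hsa-mir-1307, hsa-mir-2110, hsa-mir-3613 and hsa-mir-3615), 4 in 2 replicates, and 6 had none. Of these, hsa-mir-1292 met the criteria. Those in 2 replicates were hsa-mir-1180, hsa-mir-1296, hsa-mir-1304 and hsa-mir-1306, all without replicate 3. hsa-mir-1296, in an intron of JMJD1C, had 142 and 60 conversions on 27 and 19 distinct reads in replicates 1 and 2. hsa-mir-3613, in DLEU2, the host of miR-15a and miR-16-1, had 51, 33 and 24 conversions, and only 2 distinct reads in replicate 3. Those without a cluster were MIR1270, MIR1287, MIR1908, MIR2277, MIR3074 and MIR3605.

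The list of entries overlapping repeats or other noncoding RNAs named 21 numbers. With their copies these gave 25 hairpins, and some of the numbers matched no hairpin. Only hsa-mir-3687 had a cluster in all 3 replicates, 3 had one in 2 (hsa-mir-1254-1, hsa-mir-3648 and hsa-mir-4521), 3 in 1, and 18 had none, among them MIR1246, MIR1275, MIR1290 and MIR4454. In both lists, a hairpin without a cluster may still have been bound below the depth at which the authors listed clusters.

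By the annotation in the files, 22 members carried a repeat or structured RNA tag in some list, and 3 of these 22 had a cluster in all 3 replicates, compared with 34 of the 149 untagged members with a cluster in any replicate. The 3 tagged ones were hsa-mir-3620, hsa-mir-4750 and hsa-mir-7641-1. hsa-mir-7641-1, on a 5S ribosomal RNA repeat, had 22, 13 and 2 conversions, and its copy hsa-mir-7641-2 had 49 and 7 and no cluster in replicate 3; reads of such copies may be split between them. hsa-mir-4521, tagged as a tRNA, had 47 and 6 conversions in replicates 1 and 2, while 5 clusters within 1000 nt on the same strand had 673 and 400. hsa-mir-1254-1, an Alu element, had 26 and 45 conversions in replicates 2 and 3, on 2 distinct reads each. hsa-mir-1277, on a simple repeat, had 31 and 37 in replicates 1 and 3.

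Members in a single replicate were mostly thin. The largest were hsa-mir-4680, in an exon of PDCD4, with 38 conversions, hsa-mir-1909, in REXO1, with 36, hsa-mir-1976, in RPS6KA1, and hsa-mir-6505, in PFKM, with 30 each, all in replicate 1. Their distinct reads numbered 5, 4, 6 and 5. The 83 members in a single replicate comprised 38 from replicate 1, 35 from replicate 2 and 10 from replicate 3. The 46 other hairpins in a single replicate comprised 28, 15 and 3, so few came from replicate 3 in both groups.

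The position of the strongest crosslink often recurred between replicates. It was the same base in all 3 replicates for 18 of 37 members (48.6%), against 39 of 123 other hairpins (31.7%). Among hairpins with at least 3 distinct reads in each replicate it was the same for 15 of 21 members (71.4%), against 34 of 93 (36.6%). By the cluster with the most conversions per hairpin, overlap in all 3 replicates was found for 35 of 37 members, against 114 of 123 other hairpins. The exceptions among members were hsa-mir-1301 and hsa-mir-2110. Both also had smaller clusters in some replicate, which were not compared. Members had fewer converted positions to choose from: among those with at least 10 distinct reads the median was 5, 5 and 4, against 8, 8 and 5. The part of this in the recurrence was not tested.

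Well-covered members less often had a long extent, the stretch from the first to the last base of all clusters of a hairpin. With at least 10 distinct reads, the median extent was 63, 61 and 49 nt in members, against 61, 61 and 59 nt in the other hairpins. The extent reached 50 nt in 63.0%, 64.0% and 42.9% of such members, against 90.2%, 85.2% and 80.9% of the other hairpins. The third value for members rests on 7 hairpins.

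Most members stood alone in their surroundings, less often than the other hairpins. No further cluster outside a miRNA hairpin lay within 1000 nt on the same strand for 83.5%, 82.9% and 86.2% of members, against 96.4%, 92.3% and 97.0% of the other hairpins. hsa-mir-6797, in an intron of the ribosomal protein gene RPS19, was an example of the opposite among members in all 3 replicates, with 72, 62 and 9 conversions of its own and 328, 194 and 97 on neighbouring clusters. Of 32 members in all 3 replicates with a host gene, the hairpin was the largest cluster of that gene in every replicate for 15, in some for 11 and in none for 6. A replicate without any other cluster of the gene also counted as largest. For 1 of the 15, hsa-mir-7641-1, this was so in all 3 replicates, which leaves 14. No such count was made for the other hairpins, so it has no background.

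**Figure D4:**
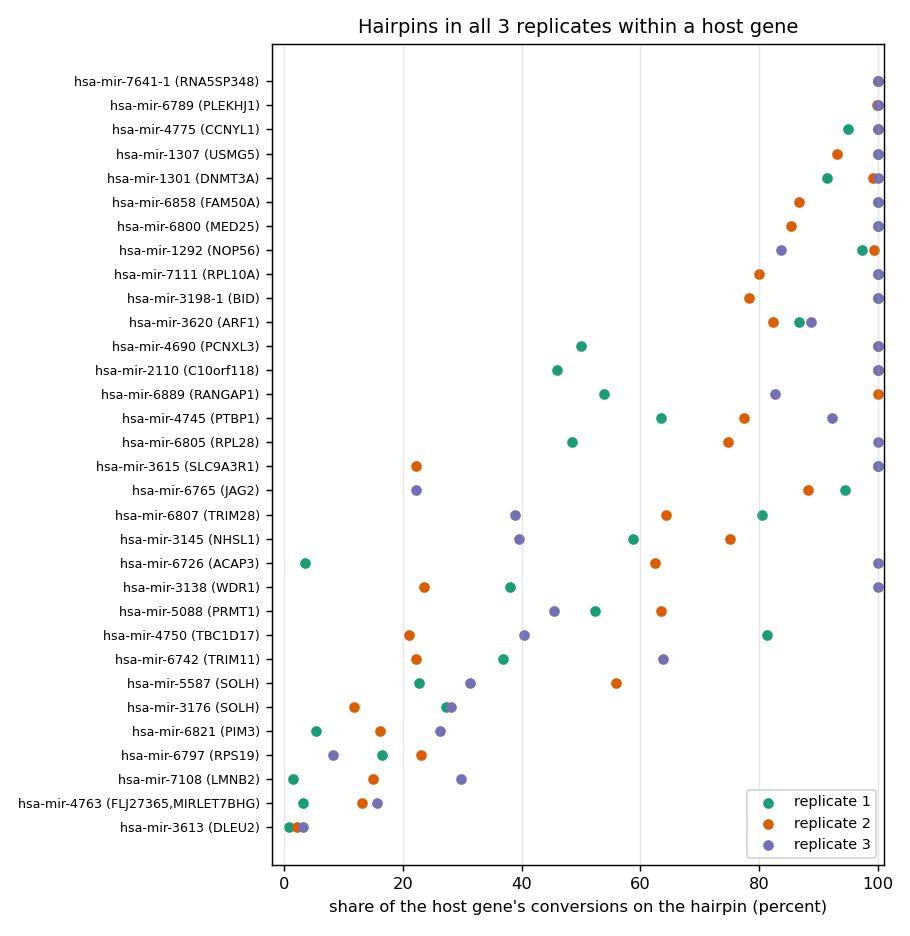
The horizontal axis gives the percent of a host gene's listed conversions that lie on the hairpin, 1 point per replicate, for the 32 hairpins numbered 1000 and above in all 3 replicates with a host gene. hsa-mir-6789 and hsa-mir-1292 lie at 83.8% or more in each replicate, whereas hsa-mir-4763 stays at 15.7% or less and hsa-mir-3613 at 3.21% or less, below the clusters of their neighbours.

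The members in all 3 replicates differed from the other hairpins in base composition. In RefSeq, 33 of them had a median G and C content of 70.0% and a U content of 18.5%, against 49.8% and 28.1% for 106 other hairpins in all 3 replicates. The 905 hairpins in the number range without a cluster had 53.3% G and C and 25.3% U. The predicted folding energy per base, from RNAfold, was -0.553 kcal/mol in members in all 3 replicates, against -0.449 in the other hairpins in all 3 replicates, with median lengths of 75 and 84 nt. PAR-CLIP needs a uridine to link, and the part of U content in the conversion counts was not tested.

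**Figure D5:**
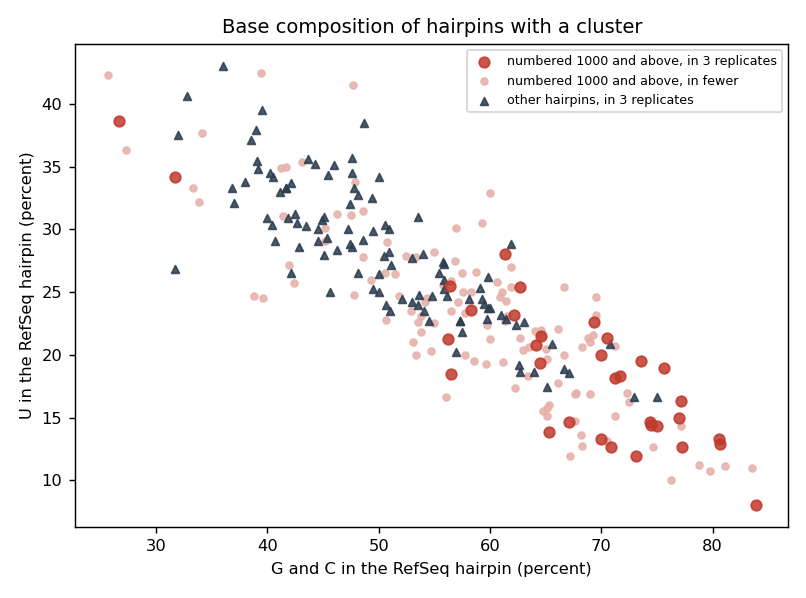
Each point is a RefSeq hairpin with a cluster, with its G and C content (percent, horizontal) and U content (percent, vertical). Hairpins numbered 1000 and above with a cluster in all 3 replicates gather at high G and C and low U, with medians of 70.0% and 18.5%, against 49.8% and 28.1% for the other hairpins in all 3 replicates; hsa-mir-4775 and hsa-mir-3145 lie at the opposite end.

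Members with a cluster often ended with the last bases of an intron. The RefSeq hairpin ended with AG, on its own strand, in 68 of 146 members with a cluster (46.6%), against 12 of 186 other hairpins with a cluster (6.45%). Among intronic members with a cluster it did so in 53 of 87 (60.9%), and in 167 of 905 (18.5%) hairpins of the number range without a cluster. Over all 1560 RefSeq hairpins the share was 16.9%. Both a leading GU and a closing AG were present in 5 of 19 splice-site members (26.3%), against 2.31% of all hairpins. A match of these letters shows only the sequence and not how the RNA was made.

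By number, the 6000s stood out in how often a hairpin had any cluster. Of the 249 RefSeq hairpins in that band, 26.5% had a cluster in some replicate, compared with 4.80% to 15.8% in the other number bands at or above 1000, 13.1% over the whole range and 33.0% of 649 other hairpins. Yet of the 66 with a cluster in some replicate only 11 (16.7%) had one in all 3, and 6 met the criteria. In the 3000s, 10 of 26 (38.5%) had one in all 3, near the background over all hairpins. Whether the authors' annotation held every RefSeq hairpin was not checked.

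Replicates ordered the members less closely than the other hairpins. Across the 37 members in all 3 replicates, log2 conversions had a Pearson r of 0.794 between replicates 1 and 2, 0.594 between 1 and 3, and 0.728 between 2 and 3. Across 123 other hairpins the values were 0.875, 0.782 and 0.897. By rank, Spearman rho was 0.808, 0.548 and 0.663 in members, against 0.879, 0.778 and 0.866 in the other hairpins. These are descriptions across hairpins, which are not independent replicates and share libraries and depth. The part of the members' lower counts in these values was not tested.

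At the edge of the number rule, the lowest-numbered members were hsa-mir-1178, with 4 conversions in replicate 2 alone, and hsa-mir-1180, with 25 and 4 in replicates 1 and 2. The highest-numbered hairpins below it were hsa-mir-943, with 19 and 4 conversions in replicates 1 and 2, and hsa-mir-942, with 277, 44 and 10. Among the numbers that the rule leaves out, the mirtron hsa-mir-1226 had 2370, 2556 and 2798 conversions, more than any member in each replicate. Clusters antisense to a member hairpin numbered 8, 8 and 7 in replicates 1, 2 and 3, against 131, 121 and 60 on the sense strand.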

How the data were processed

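FLAG-DICER PAR-CLIP RNA was sequenced from 3 replicates, in 2 sequencing runs each per the labels. Bowtie2 2.1.0 and hg19 are named in the submitters' processing notes. The authors deposited 3 replicate lists and 1 series-wide list of clusters, called at an estimated false discovery rate of 5% per the file attributes. The main value was the authors' count of T-to-C conversions per cluster, unnormalised. The authors' entropy score per cluster was read and not used. Reads, distinct reads, mismatches and annotation came from the deposited attributes. The lists hold only clusters past the authors' threshold, so a hairpin without a cluster has no value, and counts of conversions are not a sequencing depth.

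Clusters on the sense strand of a hairpin were summed per hairpin with Python 3.11.15, numpy 2.4.6, pandas 2.3.3 and scipy 1.17.1, and no cluster held both a member and another hairpin. Conversions per read are conversions divided by reads. Differences of medians were taken within each replicate and tested over the 3 replicates by an exact, two-sided sign-flip permutation, with Benjamini-Hochberg adjustment over 3 tests. The sums, support counts and test were tested on simulated data. Hairpin names were matched by symbol to RefSeq (174 of 179 members and 216 of 217 other hairpins). A RefSeq hairpin sequence was found for 146 members and a mature sequence for 160. Folding used RNAfold 2.7.2. Named hairpins were those that met the criteria, the 12 with the most series-wide conversions, the 4 largest in a single replicate, up to 4 that failed on conversions per read, up to 6 with a repeat or structured RNA tag, and members of 2 lists; hsa-mir-1277, hsa-mir-6797 and the hairpins beside the number limit were named after their values were seen. The members, lists and criteria were chosen with earlier results of these data known. Alternatives left out a replicate, thin clusters, tagged clusters or part of the comparison hairpins; leaving out splice-site clusters and counting mismatches or distinct reads were added after seeing the data.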

Additional observations from a re-analysis of the deposited data

How the results depend on the processing

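Leaving out each replicate in turn gave -2.62 to -1.93 for the log2 difference in conversions, -2.04 to -1.75 for distinct reads, 0.0259 to 0.0572 for conversions per read, and 4.22% to 4.55% for the members' share of hairpin conversions. Members in all remaining replicates numbered 42 to 77 and those meeting the criteria 13 to 45, both highest without replicate 3, where the 45 held all 13 of the main set. Requiring 3 or more distinct reads turned the difference in conversions per read to -0.0281 and left 21 members, against 91 other hairpins, in all 3 replicates; the cause was not tested. Without splice-site clusters, members held 2.18% of hairpin conversions and 7 met the criteria, against 74 other hairpins. By distinct reads in place of conversions the share was 13.0%. With 5 distinct reads in each replicate, 10 met the criteria, without hsa-mir-3187, hsa-mir-6807 and hsa-mir-6889. With the 5th to 95th percentile, 15 did, hsa-mir-1301 and hsa-mir-6742 added. With conversions as a share of all mismatches, 11 did, of which 8 were in the main set; hsa-mir-1292, hsa-mir-3687, hsa-mir-4763, hsa-mir-6821 and hsa-mir-6889 lost the call, and hsa-mir-1301, hsa-mir-1307 and hsa-mir-7108 gained it. The log2 difference in distinct reads was -1.43 with 3 or more distinct reads, against -1.89 ± 0.293 in the main value. Differences other than that in conversions per read kept their direction under every alternative tried. No paired analysis was possible because there is no second group of samples; the differences between hairpin groups were taken within each replicate. With 3 replicates no sign-flip test can pass 0.05, replicate 3 has few distinct reads, and hairpins without a listed cluster cannot be called unbound.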
